A study of Mus musculus with 3 samples.

Results

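The genes of bone morphogenetic protein (BMP) signalling followed here across the cells of the adult mouse subventricular zone were the inhibitors of DNA binding Id1, Id2, Id3 and Id4, the receptors Bmpr1a, Bmpr1b and Bmpr2, the ligand Bmp4, and the signal carriers Smad1 and Smad4. These 10 were taken by symbol from the 27998 genes of the tables, and all 10 had unique molecular identifier (UMI) counts in all 3 libraries. The libraries are droplet single-cell RNA-seq of papain-dissociated cells from the lateral ventricle walls of 5 adult mice. Every animal carried both alleles of one cross: aSMACreERt2::Rosa26-tdTomato, in which tamoxifen-dependent Cre driven by the smooth muscle actin promoter switches on tdTomato, and B6;129S-Sox2tm2Hoch/J, in which GFP is made under the control of Sox2. The strain background is given as C57/Bl6(3/4) crossed with 129S1SvlmJ(1/4). One library holds cells positive for both tdTomato and GFP, from 1200 sorted cells. The others hold cells negative for tdTomato and positive for GFP, from 1200 sorted cells (tdTomato-negative 1) and 6000 sorted cells (tdTomato-negative 2). The sorting gates removed debris and doublets and were set on wild-type cells and on cortical tissue. The tdTomato mark depends on the promoter and on recombination, so it does not define a cell type by itself. Nothing in the labels says that the libraries came from separate animals, so each p-value rests only on these libraries, whose spread may be technical. That spread was estimated largely from all genes of a fit together. A very small p-value therefore does not show that the gene itself varied little between libraries.

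BMP ligands such as Bmp4 bring together type I receptors (Bmpr1a, Bmpr1b) and the type II receptor Bmpr2. The active receptors phosphorylate Smad1 and its relatives, which join Smad4 and enter the nucleus, where the Id genes are classical targets. Id proteins have no DNA-binding region of their own; they pair with the E proteins Tcf3, Tcf4 and Tcf12 and keep these from forming active dimers with proneural factors. In the subventricular zone, BMP signalling and Id proteins are known for holding neural stem cells in an undifferentiated state, and ependymal cells are known as a source of the BMP antagonist Noggin.

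The promoters of Id2, Id3 and Id4 are shown because Id promoters are textbook Smad targets and these Id genes differ between the classes described below, as Id1 does. Each is the RefSeq sequence (GRCm38.p6) from 250 bases before to 50 bases after the start that RefSeq gives the gene, 5′ to 3′ on the gene's strand: chr12:25096043-25096342 on the minus strand for Id2, chr4:136143572-136143871 on the plus strand for Id3 and chr13:48260866-48261165 on the plus strand for Id4. Capitals mark the letters of 2 motifs searched on both strands: the GC-rich Smad1 motif GGCGCC, which is its own reverse complement, and the Smad4 motif CAGAC, which reads GTCTG on the other strand. The motifs do not overlap in these sequences. RefSeq's starts differ from those of the gene models whose positions are given at the end: the Id2 and Id3 windows lie inside those models.
Id2: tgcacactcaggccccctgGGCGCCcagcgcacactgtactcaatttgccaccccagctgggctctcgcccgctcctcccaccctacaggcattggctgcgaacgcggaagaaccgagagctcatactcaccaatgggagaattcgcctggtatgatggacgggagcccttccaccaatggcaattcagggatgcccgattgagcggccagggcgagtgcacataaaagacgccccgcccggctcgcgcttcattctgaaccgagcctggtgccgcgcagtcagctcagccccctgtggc
Id3: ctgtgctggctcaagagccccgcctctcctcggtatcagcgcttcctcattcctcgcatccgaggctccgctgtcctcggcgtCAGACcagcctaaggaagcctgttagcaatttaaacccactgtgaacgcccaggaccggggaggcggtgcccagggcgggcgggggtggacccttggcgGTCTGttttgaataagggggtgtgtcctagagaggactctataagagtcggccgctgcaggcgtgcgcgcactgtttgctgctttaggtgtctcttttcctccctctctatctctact
Id4: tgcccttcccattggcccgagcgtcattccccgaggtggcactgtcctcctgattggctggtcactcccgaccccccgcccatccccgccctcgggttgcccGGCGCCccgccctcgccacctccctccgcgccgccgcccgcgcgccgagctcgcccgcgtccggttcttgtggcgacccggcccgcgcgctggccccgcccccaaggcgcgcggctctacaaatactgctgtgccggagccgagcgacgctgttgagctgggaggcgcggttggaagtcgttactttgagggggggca
Id2 and Id4 each held 1 GGCGCC and 0 CAGAC. Id3 held 0 GGCGCC and 2 CAGAC, of which 1 is on the opposite strand. Over 32851 promoters of the same length, 11.9% held GGCGCC and 49.6% held CAGAC on either strand. These matches are letters in a window and were not tested for binding. Promoters were matched for 8 of the 10 members, all but Id1 and Smad4.

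The libraries held 788344 UMIs (tdTomato-positive), 929997 (tdTomato-negative 1) and 3593633 (tdTomato-negative 2). After cells with under 300 genes or over 25% mitochondrial UMIs were left out, 252, 256 and 1121 cells remained, with medians of 2535, 2640 and 2401 UMIs. At most 2 cell barcodes were shared by any pair of libraries. The median mitochondrial share was 8.27% in the tdTomato-positive cells against 3.22% and 3.38% in the others. Cells were clustered without the members or the other pathway genes, and clusters were named from marker lists: 235 ependymal-like, 274 astrocyte-like, 140 transit-amplifying-like, 284 neuroblast-like, 431 neuron-like, 69 oligodendrocyte precursor-like and 37 oligodendrocyte-like cells. The neuron-like name rests on a single marker, Meg3, among the 10 leading genes of each of its clusters. Of the precursor-like clusters, that of 51 cells had 7 precursor markers among its 10 leading genes and that of 18 cells had 1. A cluster of 117 cells led by Ung and Mcm genes had no marker among its 10 leading genes and stays unnamed. The tdTomato-positive library also held 14 microglia-like, 20 endothelial-like and 8 mural-like cells, of which the other libraries held 0. Ependymal-like cells made up 177 of its 252 cells, but 12 and 46 cells of the other libraries. The summed ependymal markers stood at 16417 to 18434 counts per 1000000 UMIs (CPM) in ependymal-like cells and at 311 to 1462 CPM in astrocyte-like cells. Members vary together with genes used for clustering, so a difference between classes describes these classes and is not independent of how they were drawn.

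The Id genes divided the classes in different ways. Among neural classes, Id2 and Id3 were highest in astrocyte-like cells, whose markers the neural stem cells of this tissue are known to share. Id4 was about as high in ependymal-like as in astrocyte-like cells. Id1 was high in part of the astrocyte-like cells, and both Id1 and Id3 were high in endothelial-like cells, where Id3 was above each astrocyte-like library. Levels below are CPM of the summed cells of a library and class, given in the order tdTomato-positive, tdTomato-negative 1, tdTomato-negative 2, for classes with at least 10 cells in that library. Overlap of library values, or its lack, is given as a description, since it was not counted over all genes.

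Id2 stood at 933, 1307 and 1169 CPM in astrocyte-like cells. In ependymal-like cells it stood at 117, 178 and 175 CPM. The lowest astrocyte-like library was thus above the highest ependymal-like one. Oligodendrocyte precursor-like cells came next to the astrocyte-like cells, at 246 and 489 CPM in the tdTomato-negative libraries, with a mean of 368 ± 172 (SD, n = 2) against 1136 ± 189 (SD, n = 3). Id2 was lowest in transit-amplifying-like cells (in this tissue the dividing progeny of the stem cells), at 24.98 and 62.5 CPM. Neuroblast-like cells had 60.4 and 106 CPM, and neuron-like cells 49.0 and 145 CPM. From the ependymal-like level of 157 ± 34.2 CPM (SD, n = 3) downward, neighbouring classes overlapped.

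Id3 stood at 436, 664 and 896 CPM in astrocyte-like cells. Ependymal-like cells held 30.6, 22.2 and 79.1 CPM. The unnamed cluster led by Ung and Mcm genes was next to the astrocyte-like cells at 54.1 and 71.4 CPM. That cluster overlapped the ependymal-like range, and the means of the remaining neural classes were lower, down to 13.4 and 14.8 CPM in neuron-like cells. Of all 723 Id3 UMIs in kept cells, 76.3% were in astrocyte-like cells. Outside the neural lineage, the 20 endothelial-like cells of the tdTomato-positive library held 991 CPM of Id3 (686 to 1384, 95% exact Poisson interval, counting error only).

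Id4 stood at 486, 868 and 463 CPM in ependymal-like cells and at 218, 854 and 443 CPM in astrocyte-like cells, and these ranges overlapped. Neuroblast-like cells had 276 and 227 CPM and transit-amplifying-like cells 171 and 138 CPM. The oligodendrocyte lineage had the least, with 46.2 and 16.0 CPM in precursor-like cells. Oligodendrocyte-like cells had 37.1 CPM in the tdTomato-positive library and 9.58 CPM in tdTomato-negative 2. No Id4 UMI was found in the endothelial-like cells. In both ependymal-like and astrocyte-like cells, the tdTomato-negative 1 library was the highest for Id4.

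In astrocyte-like cells Id1 stood at 0, 221 and 158 CPM, with no UMI in the 16 such cells that were tdTomato-positive. Ependymal-like cells held 28.9, 44.5 and 16.9 CPM. Transit-amplifying-like cells had 37.5 and 62.5 CPM, and the unnamed Ung and Mcm cluster 54.1 and 94.5 CPM. Neuroblast-like cells had 0 and 6.54 CPM. Both transit-amplifying-like libraries thus lay above both neuroblast-like ones for Id1, while their ranges overlapped for Id2. Endothelial-like cells held 758 CPM (495 to 1110, 95% exact Poisson interval) from 26 UMIs, which is 9.12% of all Id1 UMIs from 1.23% of the kept cells.

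**Figure D1:**
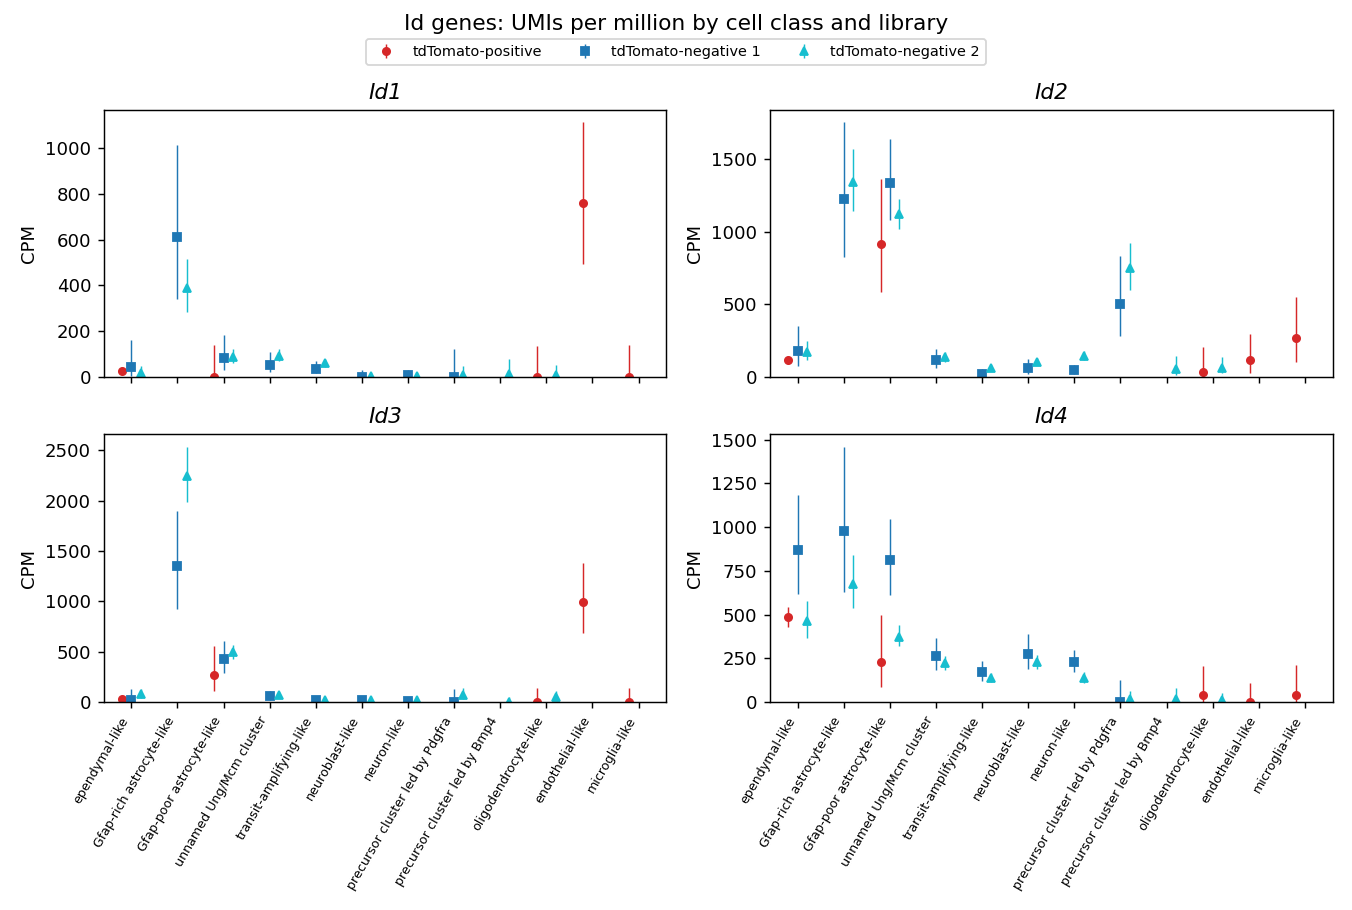
Levels of Id1, Id2, Id3 and Id4 in counts per 1000000 UMIs for each cell class and library (points, with bars for 95% exact Poisson intervals that cover counting error only). Id2 and Id3 are highest in the astrocyte-like cells among neural classes, Id4 is high in both ependymal-like and astrocyte-like cells, and Id1 and Id3 are also high in the tdTomato-positive library's endothelial-like cells.

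Class comparisons were made with edgeR's quasi-likelihood test on the summed counts with the library as a block, and p-values were adjusted over all 3676 genes tested (Benjamini-Hochberg). Fold changes are log2 values with approximate SE. Between astrocyte-like and ependymal-like cells, 4 of the 9 members tested passed an adjusted p of 0.05, all higher in astrocyte-like cells, where 29.9% of all genes passed (11.5% higher and 18.4% lower). The 9 members are those that passed the count filter. Bmpr1b and Bmp4 passed it only in the class where each is highest, so their calls describe that and support nothing; without them 3 of 7 members passed here, 5 of 7 in each comparison of astrocyte-like with transit-amplifying-like, neuroblast-like and oligodendrocyte-like cells, and 4 of 7 in that with precursor-like cells. The median log2 difference was 0.83 over all 9 members tested, Bmpr1b and Bmp4 included, and -0.11 over all genes. As it includes these 2 genes, the member median is a description only. Id3 was higher by 3.60 ± 0.27 (adjusted p = 8.25e-38), Id2 by 2.82 ± 0.24 (adjusted p = 2.64e-29) and Id1 by 2.04 ± 0.46 (adjusted p = 8.28e-05). Without the tdTomato-negative 2 library, the Id1 difference was 1.15 with an adjusted p of 0.40. Id4 did not pass, at -0.24 ± 0.22 (adjusted p = 0.461). The fourth member, Bmpr1b, is described with the receptors.

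Against transit-amplifying-like cells, 6 of 9 members passed, 5 of them higher in astrocyte-like cells, where 46.6% of all genes passed (22.2% higher and 24.4% lower). Id3 was higher by 5.77 ± 0.26 (adjusted p = 3.04e-106), Id2 by 4.67 ± 0.26 (adjusted p = 6.26e-68), Id4 by 1.88 ± 0.23 (adjusted p = 2.45e-15) and Id1 by 1.61 ± 0.32 (adjusted p = 3.07e-06). All 4 Id genes were thus lower in the transit-amplifying-like cells. Without the tdTomato-negative 1 library, the Id1 difference was 1.15 and missed the threshold (adjusted p = 0.11). Of all genes that passed, 47.7% were higher in astrocyte-like cells with TMM scaling and 58.4% with DESeq2's size factors in its place (RLE).

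Against neuroblast-like cells, 6 of 9 members passed, again 5 of them higher in astrocyte-like cells, where 40.5% of all genes passed (20.3% higher and 20.2% lower). The difference was 5.41 ± 0.27 for Id3 (adjusted p = 1.59e-83), 4.84 ± 0.53 for Id1 (adjusted p = 4.15e-18), 3.82 ± 0.26 for Id2 (adjusted p = 1.38e-46) and 1.17 ± 0.23 for Id4 (adjusted p = 1.79e-06). The Id1 value compares 105 UMIs with 4. Without the tdTomato-negative 1 library, Id4 stood at 0.73 and missed the threshold (adjusted p = 0.30).

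Between transit-amplifying-like and neuroblast-like cells, 2 of 9 members passed, where 18.6% of all genes passed (10.3% higher and 8.22% lower). Id1 was higher in transit-amplifying-like cells by 3.23 ± 0.61 (adjusted p = 2.89e-06), from 62 UMIs against 4. Id4 was lower in them by 0.71 on the log2 scale (SE 0.25, adjusted p = 0.0257). Id2, at -0.85 ± 0.33 (adjusted p = 0.0568), and Id3, at -0.36 (adjusted p = 0.743), did not pass. Without tdTomato-negative 2, Id1 stood at 5.29 with an adjusted p of 0.29. The Id4 call was lost in 10 of its alternatives, and the Id2 value passed in 5 of its own. These classes differ in depth, with medians of 7215 and 2410 UMIs per cell.

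**Figure D2:**
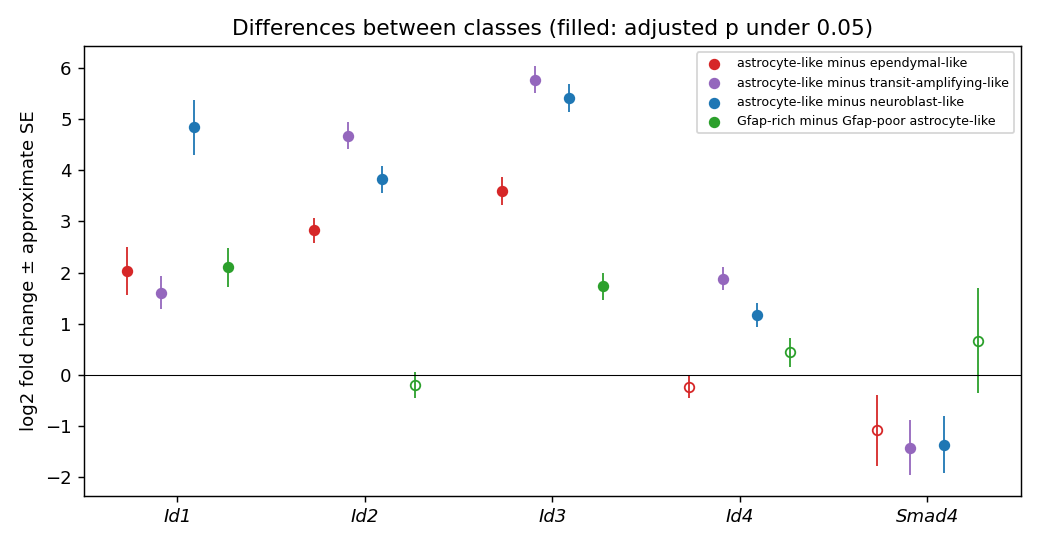
Log2 differences between cell classes for Id1, Id2, Id3, Id4 and Smad4, with bars for the approximate SE and filled points for an edgeR adjusted p under 0.05. Id2 and Id3 are higher in astrocyte-like cells in each comparison with ependymal-like, transit-amplifying-like and neuroblast-like cells, while the Id4 difference from ependymal-like cells, -0.24, does not pass.

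Within the astrocyte-like class, clusters differed in Gfap, the intermediate filament gene of astrocytes and stem cells, at 1627 CPM in the 71 Gfap-rich cells and 89.0 CPM in the 203 Gfap-poor cells. Id3 stood at 1348 and 2249 CPM in the Gfap-rich cells of the tdTomato-negative libraries and at 267, 426 and 494 CPM in the Gfap-poor cells of the 3 libraries. Id1 stood at 613 and 387 CPM in the Gfap-rich cells and at 0, 85.2 and 90.5 CPM in the Gfap-poor cells. Neither gene overlapped between the clusters, which is a description only, since the share of all genes so separated was not counted. Id2 did overlap, at 1225 and 1343 CPM against 916, 1335 and 1117 CPM. So did Id4, at 980 and 675 CPM against 229, 810 and 374 CPM. The 2 Gfap-rich cells of the tdTomato-positive library were too few to be counted as a library here.

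Of the 8 members tested between these clusters, 2 passed, both higher in Gfap-rich cells, where 3.27% of 3213 genes passed (1.4% higher and 1.87% lower). Id1 was higher by 2.10 ± 0.38 (edgeR adjusted p = 8.19e-06) and Id3 by 1.73 ± 0.26 (edgeR adjusted p = 1.03e-08). Id2, at -0.19 ± 0.26 (adjusted p = 0.831), and Id4, at 0.44 ± 0.28 (adjusted p = 0.506), did not pass. Leaving out either tdTomato-negative library left 1 Gfap-rich sum, which was then assumed to vary like the others. In those fits Id1 was 2.05 (adjusted p = 0.27) without tdTomato-negative 1 and 2.81 (adjusted p = 0.66) without tdTomato-negative 2. Id3 was 1.92 (adjusted p = 0.15) and 1.44 (adjusted p = 1), so neither call held in them. When the odd-digit instead of the even-digit genes formed the clusters, Id3 stood at 0.86 with an adjusted p of 0.080.

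In single cells, at least 1 Id3 UMI was found in 56 of 71 Gfap-rich cells (78.9%) and in 46.8% of Gfap-poor cells. After each cell was thinned to 1000 UMIs, the shares were 72.1% and 29.1%. Neuroblast-like cells, with a median of 2410 UMIs, had an Id3 UMI in 4.58% of cells, or 3.17% after thinning. For Id1 they were 49.3% (35 of 71; 37.2 to 61.4, 95% exact binomial interval) and 14.3%, and 33.8% and 8.16% after thinning. All 4 Id genes were found together in 18 of the 71 Gfap-rich cells (25.4%), in 17 of the 203 Gfap-poor cells (8.37%) and in 3 of the 235 ependymal-like cells (1.28%). These counts are unthinned and depend on how often each gene is found. In Gfap-rich cells, pairs were found together little more often than if unrelated: Id2 with Id4 in 57.7% against 56.5%, and Id1 with Id3 in 42.3% against 38.9%. The same held for Id2 with Id3 (67.6% against 63.3%) and Id3 with Id4 (60.6% against 55.5%). Where the genes were found in fewer cells, some pairs exceeded that share by more. In Gfap-poor cells Id1 with Id3 were found together in 11.8% against 6.69%, but Id2 with Id4 in 46.3% against 44.0%. In ependymal-like cells Id2 with Id3 were found together in 5.96% against 3.35%. In 63 of the ependymal-like cells no Id UMI was found, although their median depth, 3620 UMIs, was above the 2352 of the astrocyte-like cells.

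In the oligodendrocyte lineage the Id genes were lower. Between oligodendrocyte precursor-like and astrocyte-like cells, 6 of 9 members passed, 5 of them lower in the precursor-like cells, where 19.7% of all genes passed (8.81% higher and 10.9% lower). Id3 was lower by 4.97 on the log2 scale (SE 0.32, edgeR adjusted p = 2.84e-50), Id4 by 4.82 (SE 0.42, edgeR adjusted p = 7.6e-28) and Id2 by 2.06 (SE 0.24, edgeR adjusted p = 4.38e-16). Id1 had 2 UMIs in precursor-like cells against 105, a pooled log2 ratio of -4.34 (-7.40 to -2.45, counting error only). In oligodendrocyte-like cells, 6 of 9 members passed, all 6 lower, where 18.6% of all genes passed (7.48% higher and 11.1% lower). Id2 stood at 37.1 and 67.0 CPM there, and its difference from astrocyte-like cells was -4.59 ± 0.41 (edgeR adjusted p = 4.35e-27). Id3 stood at 0 and 47.9 CPM, with a difference of -4.55 ± 0.42 (edgeR adjusted p = 7.62e-25). Id4 had 3 UMIs against 323 and Id1 had 1 against 105. The Id1 call was lost without tdTomato-negative 2 (adjusted p = 0.60).

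Id2 also separated the 2 precursor-like clusters. In the 51 cells led by Pdgfra, the receptor gene that marks oligodendrocyte precursors, Id2 stood at 506 and 747 CPM. In the 18 cells of the other cluster it stood at 28.4 and 56.9 CPM, from 7 and 11 cells. After thinning, 40.0% of the 50 Pdgfra-led cells deep enough and 0 of the 18 other cells had an Id2 UMI (a floor of 3 cells would be 16.7%); before thinning the numbers were 36 of 51 (70.6%) and 5 of 18 (27.8%). This difference was not tested, because one of the sums holds under 10 cells.

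Of the receptors, Bmpr1b, a type I receptor, had the narrowest distribution. It stood at 93.3, 42.2 and 52.8 CPM in astrocyte-like cells, from 3, 4 and 28 UMIs. The unnamed Ung and Mcm cluster had 23.2 and 9.64 CPM, and transit-amplifying-like cells 0 and 3.54 CPM. No Bmpr1b UMI was found in ependymal-like, neuroblast-like, neuron-like, oligodendrocyte precursor-like, oligodendrocyte-like or endothelial-like cells. Of its 46 UMIs in kept cells, 35 (76.1%) were in astrocyte-like cells. A UMI was found in 34 of 274 astrocyte-like cells (12.4%, or 6.06% after thinning) and in 0 of 235 ependymal-like cells, where a floor of 3 cells would be 1.28%. For a gene with so few UMIs this limits the share of cells with a UMI, not of cells that express it. The count of 35 against 0 puts astrocyte-like cells at least 3.85 higher on the log2 scale than ependymal-like cells and at least 3.70 higher than neuroblast-like cells. Against transit-amplifying-like cells the count was 35 to 3, a pooled log2 ratio of 4.27 (2.61 to 6.62, counting error only). By the same kind of limit, the log2 difference from astrocyte-like cells was at most -1.79 for precursor-like cells and at most -0.97 for oligodendrocyte-like cells. Bmpr1b passed the count filter through 1 astrocyte-like sum, of 3 UMIs, so p-values behind that filter are not given. With all genes kept, without a count filter, the edgeR adjusted p of the Bmpr1b difference was 3.35e-05 for ependymal-like, 2.18e-05 for transit-amplifying-like, 2.95e-06 for neuroblast-like, 0.00173 for precursor-like and 0.0297 for oligodendrocyte-like cells. With DESeq2, behind the filter, these differences missed the threshold, except that from ependymal-like cells. Between Gfap-rich and Gfap-poor cells Bmpr1b did not pass (-0.08, adjusted p = 1).

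Bmpr1a, the other type I receptor, was found in every neural class. It stood at 31.1, 52.7 and 32.0 CPM in astrocyte-like cells, at 58.3 and 25.9 CPM in transit-amplifying-like cells and at 43.1 and 27.8 CPM in neuroblast-like cells. Ependymal-like cells held 37.4, 0 and 16.9 CPM, and precursor-like cells 0 and 37.2 CPM. Neighbouring classes in the order of its levels all overlapped, from 42.1 ± 22.9 CPM in transit-amplifying-like cells to 16.6 ± 4.50 CPM in neuron-like cells (SD, n = 2 each). Its highest level in any sum, 58.3 CPM, lay under the 68.3 CPM that the count filter of the class comparisons required in at least 1 sum, so it was not tested there.

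Bmpr2, the type II receptor, was likewise spread over neural classes and was highest in endothelial-like cells, at 495 CPM (289 to 793, 95% exact Poisson interval). Neuron-like cells had 93.6 and 39.5 CPM, transit-amplifying-like cells 54.1 and 35.4 CPM, neuroblast-like cells 34.5 and 52.3 CPM, and astrocyte-like cells 0, 52.7 and 30.2 CPM. These ranges overlapped. The 1 class comparison in which it passed was that of oligodendrocyte-like with astrocyte-like cells (edgeR adjusted p = 0.0468). With 0 UMIs against 21, its log2 difference there was at most -0.18 (95% exact limit, counting error only). That call was lost in 10 of its alternatives.

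**Figure D3:**
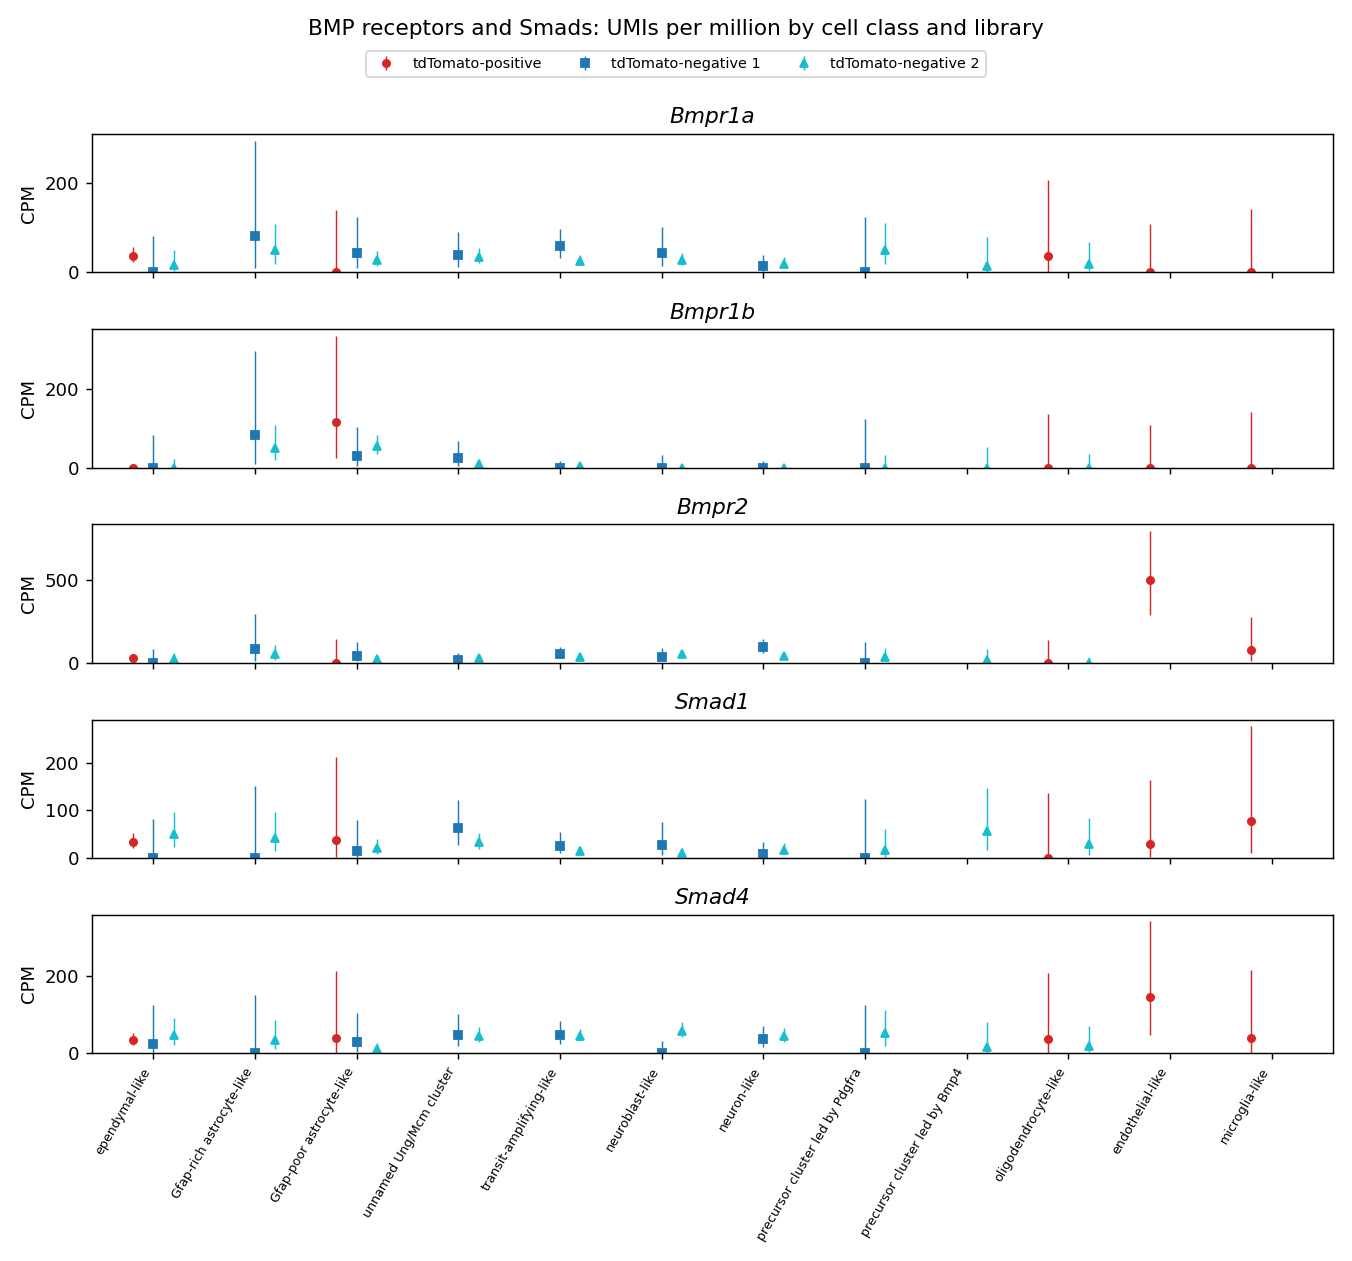
Levels of Bmpr1a, Bmpr1b, Bmpr2, Smad1 and Smad4 in counts per 1000000 UMIs for each cell class and library (points, with bars for 95% exact Poisson intervals that cover counting error only). Bmpr1b is highest in astrocyte-like cells and at 0 in ependymal-like and neuroblast-like cells, while the other receptors and the Smads are spread over the classes.

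Bmp4, the ligand, was nearly absent from the classes where the Id genes were highest. Its level was 447 and 436 CPM in oligodendrocyte precursor-like cells of the tdTomato-negative libraries, and each other class held at most 1 UMI of it in any library. Of the 119 Bmp4 UMIs in kept cells, 111 (93.3%) were in precursor-like cells. Of the same 119, 105 (88.2%) came from the cluster of 18 cells, which is 1.10% of the cells and 2.02% of the UMIs. That cluster stood at 709 CPM (7 cells, 25 UMIs) in tdTomato-negative 1 and at 1138 CPM (11 cells, 80 UMIs) in tdTomato-negative 2. The Pdgfra-led cluster stood at 135 CPM (4 UMIs) and 16.99 CPM (2 UMIs). A Bmp4 UMI was found in 15 of the 18 cells (83.3%; 58.6 to 96.4, 95% exact binomial interval) and in 5 of 51 Pdgfra-led cells (9.80%), and in 0.365% of astrocyte-like cells. The 18 cells are deeper, with a median of 6530 UMIs, and 44.4% of them had a Bmp4 UMI after thinning. Bmp4 was not among the genes that formed the clusters. The genes that lead the 18-cell cluster include Gpr17, Enpp6, Bcas1 and Nfasc, which are known from precursors that have begun to differentiate into oligodendrocytes. Set against astrocyte-like cells, precursor-like cells had 111 Bmp4 UMIs to 1, a pooled log2 ratio of 8.17 (5.66 to 13.5, counting error only). Bmp4 passed the count filter only through its precursor-like sums. Without that filter its edgeR adjusted p was 2.75e-21.

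**Figure D4:**
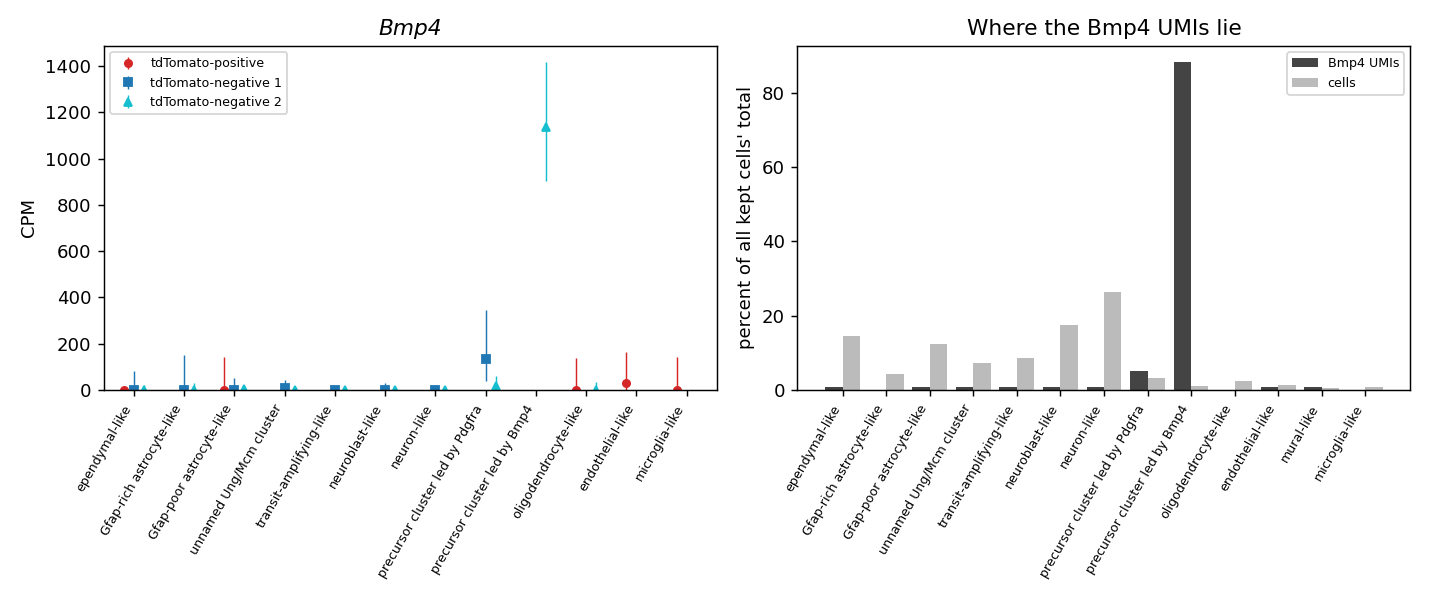
Left, Bmp4 level in counts per 1000000 UMIs for each class and library (points, with bars for 95% exact Poisson intervals). Right, the percent of all Bmp4 UMIs and of all kept cells that each class holds: the precursor-like cells hold 93.3% of the UMIs, and the 18 cells of their Bmp4-led cluster hold 88.2% of the UMIs with 1.10% of the cells.

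Smad1, which the type I receptors phosphorylate, showed no class difference that passed. It came through the count filter only by 1 microglia-like sum, of 2 UMIs. Ependymal-like cells held 34.0, 0 and 50.8 CPM, astrocyte-like cells 31.1, 10.5 and 24.5 CPM, and neuroblast-like cells 25.9 and 9.81 CPM. Among classes with at least 2 libraries, the mean was highest in the unnamed Ung and Mcm cluster, at 47.3 ± 20.5 CPM (SD, n = 2). It was lowest in neuron-like cells, at 12.7 ± 5.33 CPM (SD, n = 2).

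Smad4, the partner shared with other TGF-beta family signals, was at 31.1, 21.1 and 15.1 CPM in astrocyte-like cells. It stood at 45.8 and 44.8 CPM in transit-amplifying-like cells, above each astrocyte-like library. Neuroblast-like cells had 0 and 57.2 CPM, values on both sides of the astrocyte-like range. Smad4 was lower in astrocyte-like cells than in transit-amplifying-like cells by 1.42 on the log2 scale (SE 0.54, edgeR adjusted p = 0.0209) and by 1.36 against neuroblast-like cells (SE 0.56, edgeR adjusted p = 0.0397). With DESeq2's size factors in edgeR the first of these had an adjusted p of 0.064, with DESeq2 itself 0.28, and without tdTomato-negative 1 0.15. The second was lost in 8 of its alternatives. Smad4 passed the count filter only through 1 endothelial-like sum, of 5 UMIs (146 CPM). Without that filter neither call held, with an edgeR adjusted p of 0.086 against transit-amplifying-like and 0.22 against neuroblast-like cells.

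Of 44 other pathway and E protein genes, 19 could be tested between classes. Between astrocyte-like and ependymal-like cells, 2 were higher and 5 lower. Tcf4, an E protein that Id proteins pair with, stood at 560, 843 and 731 CPM in astrocyte-like cells and at 214, 200 and 288 CPM in ependymal-like cells (1.34 ± 0.23 on the log2 scale). Rgma, a BMP co-receptor, was higher by 1.95 ± 0.43. Higher in ependymal-like cells were Sostdc1, a secreted BMP antagonist (64 UMIs against 2), the endocytic receptor gene Lrp2 (47 UMIs against 2) and Smurf2, a ubiquitin ligase that targets Smads and receptors (log2 difference -2.92 ± 0.81). Sostdc1 had 66 UMIs in all kept cells and Lrp2 had 54. Sostdc1 could thus pass the count filter only through ependymal-like sums, so its call describes that and supports nothing. The Lrp2 call may be of the same kind. Nog, the gene of Noggin, had only 21 UMIs in kept cells. Of these, 15 were in astrocyte-like and 3 in ependymal-like cells, a pooled log2 ratio of 2.62 (0.80 to 5.05, counting error only).

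The E proteins were higher in the cells of the neuronal lineage. Tcf4 stood at 1557 and 1629 CPM in transit-amplifying-like cells and at 2381 and 2033 CPM in neuroblast-like cells. Of the 19 genes, 2 were higher and 4 lower in astrocyte-like cells than in transit-amplifying-like cells. Zeb2, a repressor that binds Smads (-1.68 ± 0.25), Tcf3 (-1.35 ± 0.31) and Tcf12 (-1.15 ± 0.29) were among those lower, and Hey1 (49 UMIs against 3) and Rgma (2.84 ± 0.41) were higher. Against neuroblast-like cells, 3 were higher and 5 lower. Zeb2 differed by -2.19 ± 0.25, the type II receptor gene Acvr2b by -1.80 ± 0.64 and Tcf4 by -1.42 ± 0.19, while Rgma (3.47 ± 0.49), Hey1 (49 UMIs against 2) and Msx1 (10 UMIs against 0) were higher. Between transit-amplifying-like and neuroblast-like cells only Nbl1, a BMP antagonist, passed (2.36 ± 0.63). In the comparisons with transit-amplifying-like and neuroblast-like cells, which share their astrocyte-like sums, all 4 Id genes were higher and all 3 E proteins lower in astrocyte-like cells.

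In precursor-like cells, 1 of the 19 was higher and 2 lower than in astrocyte-like cells: Zeb2 at 1.82 ± 0.28, Hey1 at -1.90 ± 0.65 and Rgma at -1.60 ± 0.46. In oligodendrocyte-like cells, 2 were higher and 2 lower: Smad7, the inhibitory Smad, at 3.69 ± 0.65, Zeb2 at 2.35 ± 0.31, Smad5 with 0 UMIs against 21 and Hey1 with 1 against 49. Between Gfap-rich and Gfap-poor cells, 0 of 17 passed by edgeR, and Lrp2 alone had an unadjusted p under 0.05.

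Between the gates, with all kept cells of a library summed, 2 of the 9 members tested passed in the tdTomato-positive library against the tdTomato-negative libraries, where 41.8% of 10944 genes passed (22.9% higher and 19% lower). This fit has 3 sums and 1 residual degree of freedom, and its p-values lean on a spread estimated largely over all genes together. The tdTomato-positive group is a single library, assumed to vary as the tdTomato-negative libraries do, so these p-values have no replicate check on that side and do not by themselves show a difference between the gates. Id4 stood at 410, 304 and 216 CPM and was higher by 0.73 ± 0.31 (edgeR adjusted p = 0.0457). Bmp4 stood at 4.17, 32.4 and 24.0 CPM, from 3 UMIs in the tdTomato-positive library, and was lower by 2.63 on the log2 scale (SE 0.70, edgeR adjusted p = 0.000729). With DESeq2 the adjusted p was 0.15 for Id4 and 0.13 for Bmp4. Id1 stood at 61.1, 44.3 and 55.8 CPM, Id2 at 156, 202 and 286 CPM and Id3 at 94.4, 87.4 and 160 CPM, and none of these passed (adjusted p = 0.533, 0.118 and 0.336). Bmpr1b stood at 4.17, 7.56 and 10.0 CPM and was not tested. In such sums, fewer cells of a type and less RNA per cell cannot be told apart, and 70.2% of the tdTomato-positive cells were ependymal-like against 4.69% and 4.10%. The mitochondrial share also differed between the gates, and its part in these differences was not tested.

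The 42 vascular and microglia-like cells (endothelial-, mural- and microglia-like) carried much of the Id1, Id3 and Bmpr2 signal of the tdTomato-positive library. They held 9.49% of its UMIs but 61.4% of its Id1 UMIs (27 of 44), 52.9% of its Id3 UMIs (36 of 68) and 51.4% of its Bmpr2 UMIs (19 of 37). Without them, Id1 in that library stood at 26.1 CPM, Id3 at 49.1 CPM and Id4 at 451 CPM. In the fit without those cells, chosen after seeing the data, the log2 difference of that single library from the others was -1.29 for Id3, where it had been -0.40 with them. The Id1 difference turned from 0.29 to -0.88, and the Id4 difference was 0.93. Of the 44 other pathway genes, 24 were tested between the gates, with 9 higher and 3 lower in the tdTomato-positive library. Among the higher ones, Acvrl1, an endothelial type I receptor gene, had 18 UMIs against 0, of which 14 were in endothelial-like cells, Sostdc1 was higher by 5.41 ± 0.51, and Eng, an endothelial co-receptor gene, by 5.21 ± 0.73. Acvrl1 could pass the count filter only through the tdTomato-positive library, so its call describes that. The 3 lower ones were Zeb2 (-2.53 ± 0.38), Tcf4 (-2.42 ± 0.36) and Tcf3 (-2.20 ± 0.41).

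**Figure D5:**
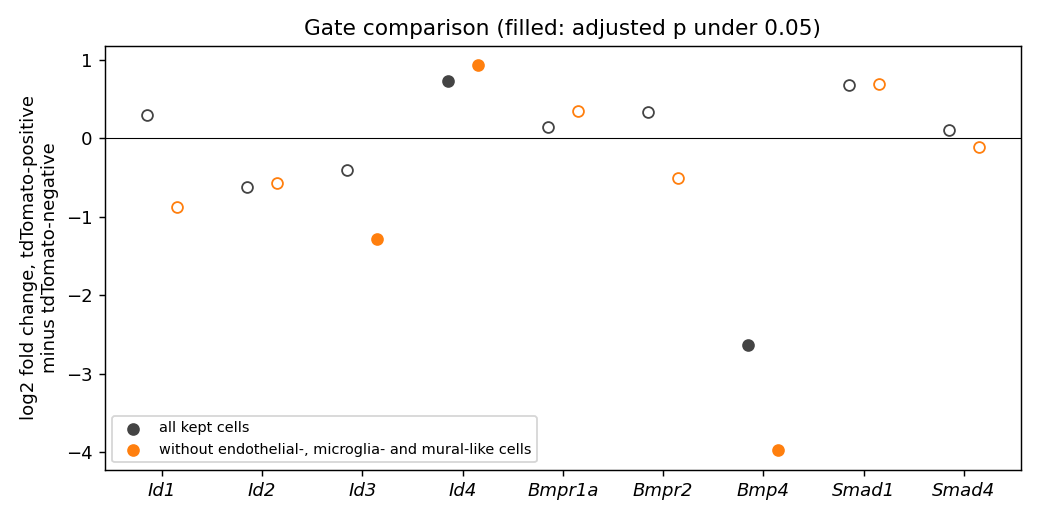
Log2 differences of the members between the tdTomato-positive and the tdTomato-negative libraries, over all kept cells and without the vascular and microglia-like cells. Points are filled for an edgeR adjusted p under 0.05. The Id1 difference is 0.29 with these cells and -0.88 without them, while Id4 is higher and Bmp4 lower in both.

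Within ependymal-like cells the gates could be compared for Id2, Id3 and Id4, and 0 of these 3 passed by edgeR or by DESeq2, where 0.291% of 4118 genes did (0.17% higher and 0.121% lower). None of the 3 had an unadjusted p under 0.05. Id4 stood at 486, 868 and 463 CPM there, and the library differences were -0.50 ± 0.39 for Id2, -0.96 ± 0.96 for Id3 and -0.20 ± 0.31 for Id4 (adjusted p = 0.999 each). Whether the gate difference was unlike in ependymal-like and astrocyte-like cells was tested as an interaction. In it 0 of 9 members passed by edgeR or by DESeq2, where 0% of 3676 genes did (0% in either direction). Id1 and Id4 were under an unadjusted p of 0.05.

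The genes most like each Id gene and receptor over the 20 sums of class and library were found by Pearson's r of log2 CPM across 3447 genes, as a description, since the sums of a library share its depth. Most like Id3 were Slco1c1 (0.93), Prex2 (0.91) and Atp5d (0.86). Most like Bmpr1b were Gjb6 (0.92), Ntsr2 (0.91) and Slc1a2 (0.90), of which Gjb6 and Slc1a2 encode an astrocyte connexin and an astrocyte glutamate transporter. Ntsr2 and Slc1a2 are on the astrocyte marker list used for clustering and naming, so their likeness is not independent of how the classes were drawn. For Id2 they were Eno1 (0.91), Nim1k (0.90) and Dnajb9 (0.88), and for Id4 Sp3os (0.85), Sox9 (0.83) and Gm14964 (0.82). Id1 had no gene above 0.74 (Eif4g1), followed by Aspscr1 (0.73) and Eci1 (0.71). For Bmpr1a they were Cox7b (0.77), Amer2 (0.73) and Orc6 (0.73), and for Bmpr2 2210013O21Rik (0.85), Cd2ap (0.78) and Gpx1 (0.78). Among the members, the pairs most alike were Id2 with Bmpr1b (0.701), Id3 with Bmpr1b (0.689), Id1 with Id3 (0.687) and Id2 with Id3 (0.643). The pair of Id4 and Bmp4 stood at -0.49.

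In the annotation of build GRCm38 the Id genes lie on separate chromosomes: Id1 at chr2:152736251-152737410, Id2 at chr12:25093799-25097140, Id3 at chr4:136143497-136145755 and Id4 at chr13:48261228-48266026. Bmpr1b lies at chr3:141837136-142169425, Bmpr2 at chr1:59763400-59879014 and Smad1 at chr8:79338395-79399518. Bmpr1a (chr14:34410734-34503341) and Bmp4 (chr14:46383520-46390669) are both on chromosome 14. Antisense or overlapping genes share positions with Id4 (A330033J07Rik, 11 UMIs), Bmpr1a (Gm17110, 1 UMI) and Bmp4 (Gm15222, 5 UMIs, and Gm15217, 0 UMIs). The strand setting of the counting is not given in the sources used here, so reads of these overlaps may not be told apart.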

How the data were processed

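The 3 libraries were made with the 10x version 2 chemistry, which reads 3′ ends. The authors deposited filtered matrices of UMI counts per gene and cell, not normalized; Seurat 1.4.0.15, STAR, Cell Ranger and the builds mm10 and GRCm38.p5 are named per the submitters' processing notes, with roles not given in the sources used here. The members and all gene lists were chosen with earlier results of these data known.

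Cells with under 300 genes or over 25% mitochondrial UMIs were left out. Clustering scaled each cell to 10000 counts and used scanpy 1.11.5 (1000 variable genes, 20 principal components, 15 neighbours, Leiden resolution 1.0) on 14074 genes: those with an even last digit in their identifier and 139 markers of 13 cell type lists, without the members and the 44 other pathway and E protein genes. A cluster took the name of the list with most markers among its 10 leading genes (found in at least 25% of its cells), if at least 3 markers of that list were at least 2 times higher than in the other cells. The Gfap-rich cluster is the astrocyte-like cluster with the highest Gfap level. Doublets beyond the authors' sorting gate were kept; Scrublet marked 3.57%, 0.781% and 0.268% of cells, and an alternative left them out. Counts of at least 10 cells were summed per library and class (20 sums, 18 in the class fit). The summed counts of the tdTomato-negative libraries differed beyond sampling noise (chi-square per degree of freedom 4.48 over 11101 genes), so they are not 1 library deposited again; whether they are separate animals is not shown by this, since cell class shares also differ. They were counted as separate samples, as labelled.

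Tests used edgeR 4.0.16 quasi-likelihood fits with TMM scaling, its count filter, the library as a block between classes, and Benjamini-Hochberg adjustment over all genes tested, with a threshold of 0.05; DESeq2 1.42.0 was an alternative. The SE is the fold change divided by the root of F. Where a group had 0 counts, the bound is a limit of the 95% exact interval of the pooled ratio. With 1 to 3 counts, the pooled ratio is given with that interval. For a share of 0 cells, a floor of 3 cells is given. Intervals and floors cover counting error only. Thinning to 1000 UMIs left out 41, 12 and 6 shallower cells. All 10 members were named, and of the other genes at most 3 in each direction of a comparison, those with the largest fold. Nog was named besides, because Noggin is described at the start. Likeness used genes with a mean of at least 50 CPM over the 20 sums and a prior count of 2.

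On simulated data with changes of known size, the fit of astrocyte-like against ependymal-like cells recovered 22 of 75 genes changed 2-fold and 64 of 84 changed 4-fold among 2846 genes, that of Gfap-rich against Gfap-poor cells 6 of 66 and 43 of 78 among 2328 genes, and that of the gates 12 of 90 and 60 of 92 among 9972 genes.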

Additional observations from a re-analysis of the deposited data

How the results depend on the processing

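The 34 member differences that passed were recomputed in 435 alternatives: 0 changed sign and 52 no longer passed. They include the class calls of Bmpr1b and Bmp4, which support nothing, and the alternatives were not counted without these. So the counts do not measure how stable the other members are. The 49 differences that did not pass were recomputed in 555: 50 changed sign and 7 passed. The cause of these changes was not tested, except that leaving out a library leaves fewer sums. Interaction and gate fits without the tdTomato-positive library, and the interaction with 20 cells per sum, could not be fitted. Gate results rest on 1 tdTomato-positive library, and low counts limit Bmpr1a, Bmpr1b, Smad1 and Smad4.

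Scaling by DESeq2's size factors (RLE) moved the median of all genes by 0.22 (astrocyte-like against transit-amplifying-like), 0.17 (against neuroblast-like), 0.13 (against ependymal-like, and oligodendrocyte-like against astrocyte-like) and -0.44 (interaction).

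The fits used the library as a replicate block. With no replicate block, 4, 6, 5, 1, 6, 6 and 2 members passed (astrocyte-like against ependymal-like, transit-amplifying-like and neuroblast-like, transit-amplifying-like against neuroblast-like, precursor-like and oligodendrocyte-like against astrocyte-like, and Gfap-rich against Gfap-poor), where 4, 6, 6, 2, 6, 6 and 2 passed with it, and Id2 between Gfap clusters stood at 0.00040. No paired analysis was possible because the gates share fewer than 2 replicate numbers.

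Of the 2 members passing between the gates, 0 passed with DESeq2 and 1 without the count filter. Of the 2 passing between transit-amplifying-like and neuroblast-like cells, 1 passed with DESeq2, without the count filter, with the stricter cell filter, without Scrublet calls and with the Ung and Mcm cluster joined. Leaving out each library gave 0 to 3 there, 2 to 4 between astrocyte-like and ependymal-like cells, 3 to 4 for oligodendrocyte-like cells and 0 to 2 between Gfap clusters.

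The log2 differences of other sign were as follows. Between the gates, Smad4 was -0.027 without the count filter, Bmpr1a -0.53 with the stricter cell filter, and, without vascular and microglia-like cells, Id1 -0.88, Bmpr2 -0.50 and Smad4 -0.11. With 20 cells per sum, Id4 was 0.18 against ependymal-like cells, and Smad1 0.13 and 0.25 in precursor-like and oligodendrocyte-like cells. With DESeq2, Bmp4 was 0.16 in oligodendrocyte-like cells, and Id2 -0.20, Id3 -0.17 and Bmp4 -1.88 in the interaction. With RLE, Bmpr2 was 0.026 against transit-amplifying-like cells, and Id2 -0.21 and Id3 -0.24 in the interaction. Without Scrublet calls, Bmp4 was -0.017 against neuroblast-like cells and Smad4 -0.45 in oligodendrocyte-like cells. Without the count filter, the interaction was 0.53 for Smad1 and 0.0042 for Smad4. At Leiden resolution 0.5, Bmpr1b was 0.078 between Gfap clusters and Smad1 0.10 in the interaction; at 2.0, Bmp4 was -0.23 against neuroblast-like cells. With odd-digit clustering, Smad1 was -0.034 against transit-amplifying-like cells, Bmp4 0.10 between transit-amplifying-like and neuroblast-like cells, Smad4 -0.32 in precursor-like and -0.49 in oligodendrocyte-like cells, Id4 -0.22 and Bmp4 0.56 between Gfap clusters, and Bmp4 -1.19 and Smad1 0.0031 in the interaction. With the stricter cell filter, Id3 was 0.10 and Bmp4 1.51 between transit-amplifying-like and neuroblast-like cells, Smad1 0.33 in oligodendrocyte-like cells, Smad4 -0.24 between Gfap clusters and Smad1 5.66 in the interaction. With the Ung and Mcm cluster joined, Bmpr2 was 0.11 against transit-amplifying-like cells, and Id3 0.79 between these and neuroblast-like cells.

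Leaving out each library gave these ranges: against ependymal-like cells, Id4 -0.54 to 0.073, Bmpr2 -0.082 to 1.06 and Bmp4 -0.86 to 2.36; against transit-amplifying-like cells, Bmp4 -0.34 to 0.71; against neuroblast-like cells, Bmpr2 -0.92 to 0.33 and Bmp4 -0.34 to 0.28. Between transit-amplifying-like and neuroblast-like cells they were -0.47 to 0.027 for Id3, -0.57 to 0.71 for Bmpr2 and -0.36 to 0.019 for Smad4. They were -0.46 to 0.39 for Bmpr2 in precursor-like cells, and -0.38 to 0.056 for Id2 and -2.69 to 0.43 for Bmp4 between Gfap clusters.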

Other observations

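The 18 cells of the Bmp4-led precursor cluster, whose leading genes begin with 9530059O14Rik and Bmp4, held at most 5 UMIs of any other member. From such counts, Bmpr2 (47.4 against 27.1 CPM), Id4 and Smad1 (37.9 against 13.6 CPM each) and Id1 (9.47 against 6.78 CPM) were above the Pdgfra-led cluster. Id2, Id3, Bmpr1a and Smad4 were below it. In the 7 cells of tdTomato-negative 1 and the 11 cells of tdTomato-negative 2, Id1 stood at 0 and 14.2 CPM and Id3 at 28.4 and 0 CPM, from 1 UMI each. Bmpr2 stood at 113 and 14.2 CPM, and Bmpr1b had 0 UMIs in either library. The cells with most of the ligand's UMIs were thus not those with the most Id UMIs. The 14 microglia-like cells of the tdTomato-positive library held Id2 at 268 CPM, but all 7 Id2 UMIs were in 1 cell. They held 1 Id4 UMI and 2 Bmpr2 UMIs, and no other library has such cells.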
